A study of Drosophila melanogaster with 4 samples.

Results

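The nuclear tRNA genes of Drosophila melanogaster were examined for open chromatin in wings of female pupae. The 295 members were all genes of the RefSeq table (Release 6 plus ISO1 MT, also called dm6) whose symbol starts with tRNA: on X, 2L, 2R, 3L, 3R or 4, out of 17684 annotated genes there. They comprise 290 tRNA genes and 5 tRNA pseudogenes, with a median length of 73 bp, and chromosome 4 carried none of them. A gene was counted as having a peak when a peak of a library's list overlapped it or had its summit within 200 bp.

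Open chromatin was assayed by FAIRE-seq, which sequences the DNA that phenol extraction frees from crosslinked chromatin because few nucleosomes hold it. The libraries came from 2 genotypes with 2 libraries each and 40 wings per library. Osa-deGrad wings carried nub-GAL4 and UAS-Nslmb-vhhGFP and were homozygous for osa-GFP, so that the driver nub-GAL4 expressed a nanobody fusion that directs GFP-tagged Osa to degradation. Control wings carried UAS-Nslmb-vhhGFP and homozygous osa-GFP without the driver, so the tagged allele and the transgene were common to both genotypes. Osa is a DNA-binding subunit of Brahma, the fly SWI/SNF chromatin remodeler. Animals of both genotypes were raised at 23 °C, moved to 29 °C as wandering larvae, staged as prepupae, and dissected at 24 to 36 h after puparium formation. The Osa protein was not measured here, and nub-GAL4 is active in wing cells but not in every cell type that a dissected wing holds. An open site in part of the cells and a partly open site in all cells cannot be told apart in such tissue.

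RNA polymerase III transcribes tRNA genes from promoter elements inside the gene, the A and B boxes. TFIIIC binds these boxes and places TFIIIB just upstream, which recruits the polymerase. In Drosophila TFIIIB contains Trf, a relative of the TATA-binding protein, together with Brf and Bdp1. Genes for the same tRNA occur in many copies, scattered and in clusters. The symbols give amino acid, anticodon, a number for the mature sequence and a number for the copy, so genes that share the first number encode the same mature tRNA.

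The Osa-deGrad lists held 13959 and 17048 peaks and the control lists 13953 and 18007, so both replicate 2 lists were longer. Read depth is unknown, and a missing peak can be a site under the caller's threshold. All 7 wing genes checked (nub, vg, sd, ap, rn, bs and Dll) had peaks in all 4 lists, against 29.5% of all genes. They are 15185 to 40511 bp long, where the median over all genes is 1710 bp, so they offer more room for a peak. Of 13 marker genes of hemocytes, muscle, neurons, glia, trachea and fat body, 6 had peaks in all 4 lists and 7 had none. The 6 were srp, Mef2, how, elav, repo and trh. The 7 were Hml, NimC1, Mhc, nSyb, btl, Lsp2 and Lsp1beta. Peaks at these genes thus do not tell the cell types apart. The part of such cell types in the results at tRNA genes was not tested.

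Many tRNA genes lay at open sites, and the control 1 list held far fewer of them than the other lists. In Osa-deGrad wings 107 tRNA genes (36.3%) had a peak in replicate 1 and 151 (51.2%) in replicate 2. In control wings 68 (23.1%) had one in replicate 1 and 137 (46.4%) in replicate 2. Over all annotated genes the shares were 39.9% and 48.5% in Osa-deGrad, against 36.0% and 46.7% in control libraries. Those genes have a median length of 1710 bp and therefore offer more room for an overlapping peak. The 565 other small RNA genes (snoRNA, snRNA and miRNA genes and the RNAs of SRP, RNase P and RNase MRP), with a median length of 100 bp, had a peak in 6.90% and 9.20% of cases in Osa-deGrad, against 5.31% and 7.96% in control libraries. The tRNA genes exceeded them in every library, by a mean of 31.9 percentage points. Most of the 565 are 269 snoRNA and 260 miRNA genes. The snoRNA genes had 4.83% and 8.92% in Osa-deGrad, against 3.35% and 7.43% in control libraries. The miRNA genes had 7.69% in each Osa-deGrad library, against 6.54% in each control library. The 32 snRNA genes were higher, at 15.6% and 21.9% in Osa-deGrad, against 9.38% and 21.9% in control libraries, so the excess over them was smaller. Many snoRNA and miRNA genes lie inside host genes and are not transcribed from a promoter of their own. Of the 295 tRNA genes, 138 also lie within another gene. The part of host genes and promoters in the excess was not tested.

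**Figure D1:**
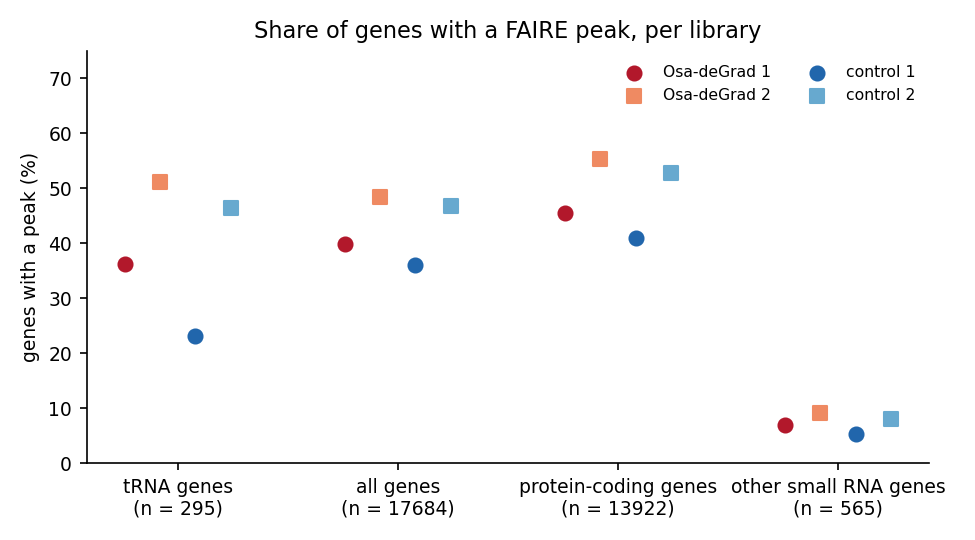
Share of genes with a FAIRE peak (percent, vertical axis) in each of the 4 libraries, for tRNA genes, all genes, protein-coding genes and other small RNA genes. The tRNA genes sit near the level of all genes except in control 1, at 23.1%, and far above the other small RNA genes.

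The genotypes were not separated. The share averaged 43.7% ± 10.5 over Osa-deGrad libraries, against 34.7% ± 16.5 over control libraries (SD, n = 2 each), a difference of 8.98 points that was smaller than the spread between the 2 control libraries. The groups overlapped, since Osa-deGrad 1 lay below control 2. Among same-numbered libraries Osa-deGrad exceeded control by 13.2 points in replicate 1 and by 4.75 in replicate 2, against 3.90 and 1.75 points over all genes. Without control replicate 1 the difference was -2.71 points, so its direction rested on that library. With 2 libraries per genotype the smallest exact two-sided p is 0.333, and no p was computed.

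Presence across the lists varied widely from gene to gene. A peak was found in all 4 lists at 48 tRNA genes (16.3%, against 29.5% of all genes) and in none at 122 (41.4%, against 46.3% of all genes). With control 1 left out, 86 had a peak in all remaining lists. At 38 tRNA genes (12.9%, against 6.51% of all genes) every list but control 1 held a peak. At 26 (8.81%, against 4.20% of all genes) only the replicate 2 lists did, and at 0 (against 0.192% of all genes) only the replicate 1 lists did. None of the 5 pseudogenes (His-GTG-2-1Psi, Glu-CTC-5-1Psi, Thr-AGT-3-1Psi, Glu-CTC-6-1Psi and Ile-AAT-2-1Psi) had a peak in any list.

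Peaks at tRNA genes were mostly of moderate strength. Each peak was ranked within its own list by the authors' −log10 q value, where 100 is the strongest. The 92 and 123 distinct peaks at tRNA genes in Osa-deGrad libraries had median ranks of 35.6 and 45.8. In the control libraries the 54 and 117 peaks had median ranks of 34.9 and 44.0. All 4 medians lay below the middle of their list, and few peaks were among the strongest: 0 and 1 in the Osa-deGrad lists and 1 and 3 in the control lists ranked above 90. The authors' median fold enrichment was 4.54 and 4.43 at tRNA genes in Osa-deGrad lists, whose overall medians were 5.11 and 4.58. In control lists it was 4.70 and 4.77, with overall medians of 5.25 and 4.98. A peak often served neighbours: 16 and 26 of the Osa-deGrad peaks and 13 and 22 of the control peaks covered more than 1 tRNA gene, with at most 3 genes per peak. Genes are therefore not independent of each other.

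**Figure D2:**
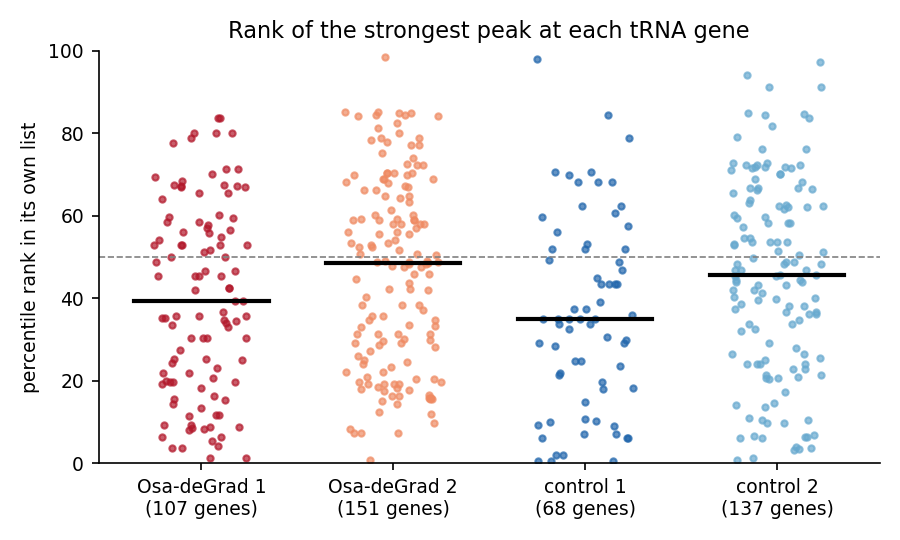
Percentile rank (vertical axis, 0 to 100, within each library's own list by −log10 q) of the strongest peak at each tRNA gene with a peak. Each point is a gene, the black bars are medians over genes, and the dashed line marks a rank of 50. The medians are 39.4 and 48.5 in Osa-deGrad, against 34.9 and 45.7 in control libraries.

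The counting rule requires a peak over the gene or a summit within 200 bp, so short distances from summit to gene are largely set by it and are given as a description. Of the genes with a peak, the summit lay inside the gene at 35.5% and 37.1% in Osa-deGrad, against 32.4% and 37.2% in control libraries. The median distance from the summit to the gene was 27 and 17 bp in Osa-deGrad, against 26 and 18 bp in control libraries. The 121 tRNA genes more than 2000 bp from the end of any other kind of gene give a view free of neighbouring promoters that are annotated at a gene end. Around their middles, the 100 bp on the left and on the right held 13 and 15 summits in Osa-deGrad 1, 25 and 22 in Osa-deGrad 2, 5 and 9 in control 1, and 15 and 16 in control 2. Of the other 100 bp bins within 1000 bp, 1 held 12 summits, in control 2, and all others at most 8. The gene table gives no strand, so upstream and downstream sides were not separated.

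**Figure D3:**
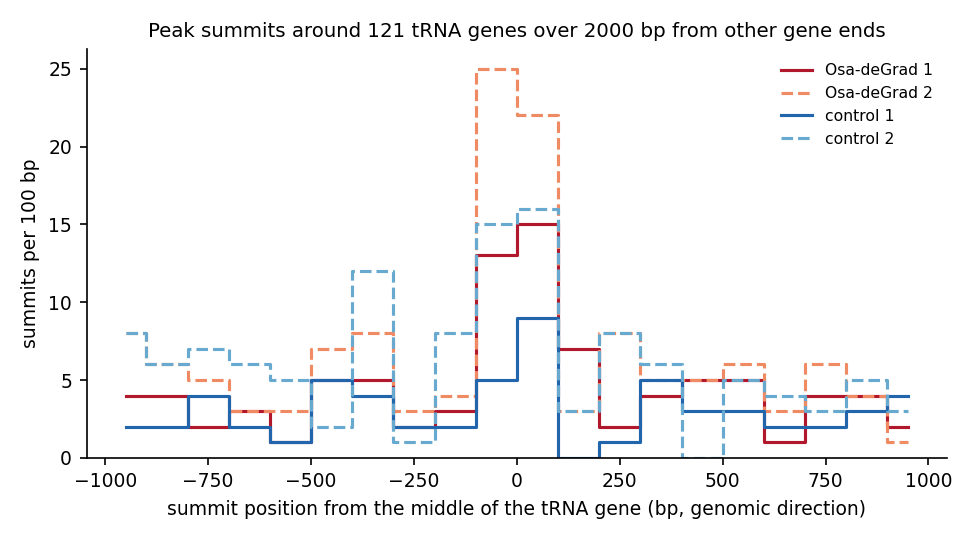
Number of peak summits per 100 bp (vertical axis) by distance from the middle of the tRNA gene in bp (horizontal axis, genomic direction), summed over the 121 tRNA genes more than 2000 bp from other gene ends, with 1 line per library. A summit near several tRNA genes counts at each of them. All 4 libraries have their highest bin next to the middle of the gene, at 15 and 25 summits in Osa-deGrad, against 9 and 16 in control libraries.

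Neighbouring genes moved with the share. Of 85 tRNA genes within 500 bp of the end of another gene, 45.9% and 63.5% had a peak in Osa-deGrad, against 42.4% and 61.2% in control libraries. Of the 210 farther away, 32.4% and 46.2% had a peak in Osa-deGrad, against 15.2% and 40.5% in control libraries. The low value of control 1 thus lay mostly at genes away from others. Lying within another gene made a smaller contrast: 34.1% and 51.4% of 138 such tRNA genes had a peak in Osa-deGrad, against 17.4% and 44.9% in control libraries, and between genes 38.2% and 51.0% of 157 had one in Osa-deGrad, against 28.0% and 47.8% in control libraries.

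The X chromosome had the lowest share. Of its 26 tRNA genes, 2 and 3 had a peak in Osa-deGrad, against 1 and 4 in control libraries, and 80.8% had none in any list. Over all genes, X had a peak at 47.2% and 53.7% in Osa-deGrad, against 43.0% and 52.0% in control libraries, and 40.7% of its genes had none. The 5 X-linked tRNA genes with a peak were Gln-TTG-2-1, Phe-GAA-1-2, Arg-TCG-2-1, Ser-CGA-1-1 and Pro-CGG-2-1. On 2R, which holds 100 tRNA genes, 44 and 65 had a peak in Osa-deGrad, against 33 and 57 in control libraries. All genes on 2R had shares of 40.0% and 49.7% in Osa-deGrad, against 35.7% and 47.3% in control libraries. On 3L the gap was widest, with 18 and 20 of 49 genes in Osa-deGrad, against 4 and 16 in control libraries. The low value was that of control 1, at 8.16%, against 32.7% in control 2. All genes on 3L had shares of 39.4% and 47.6% in Osa-deGrad, against 35.1% and 46.0% in control libraries. On 2L 15 and 25 of 41 genes had a peak in Osa-deGrad, against 12 and 25 in control libraries. All genes on 2L had shares of 34.3% and 42.8% in Osa-deGrad, against 31.5% and 41.5% in control libraries. On 3R 28 and 38 of 79 had one in Osa-deGrad, against 18 and 35 in control libraries. All genes on 3R had shares of 39.9% and 48.9% in Osa-deGrad, against 36.1% and 47.4% in control libraries. Differences between chromosomes were not tested, since genes are not replicates.

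Sorted by amino acid, asparagine tRNA genes had the highest share and glutamate tRNA genes the lowest among groups of more than 1 gene. All 10 genes for Asn had a peak in at least 1 list, with 8 and 9 in Osa-deGrad, against 3 and 7 in control libraries. Of 21 genes for Glu only 5 had a peak in any list, with 1 and 5 in Osa-deGrad, against 0 and 4 in control libraries. Of the 9 copies of Glu-CTC-3, 7 had none, and the part of read placement at such copies was not tested. Sorted by the share of genes with a peak in at least 1 list, the next highest groups were His (5 of 6 genes), Ala (13 of 17), Gly (15 of 20), Ile (9 of 12), Trp (6 of 8) and Leu (16 of 22). Intermediate groups were Gln (8 of 12), Pro (11 of 17), Asp (9 of 14), Phe (5 of 8), Tyr (6 of 10), Val (9 of 15), Thr (10 of 18), Ser (10 of 20) and elongator Met (3 of 6). Low shares were found for Lys (9 of 19), Arg (10 of 26), initiator Met (2 of 6) and Cys (2 of 7), and the only selenocysteine tRNA gene had no peak.

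Between the genotypes, 14 of the 22 groups had a higher mean share in Osa-deGrad, 4 an equal and 4 a lower one. Leu had 12 and 14 of 22 genes with a peak in Osa-deGrad, against 3 and 12 in control libraries. Lys had 7 and 8 of 19 in Osa-deGrad, against 2 and 4 in control libraries. Asp ran the other way, with 4 and 6 of 14 in Osa-deGrad, against 4 and 9 in control libraries. In 15 of the 22 groups control 1 held fewer genes than each of the other 3 lists.

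**Figure D4:**
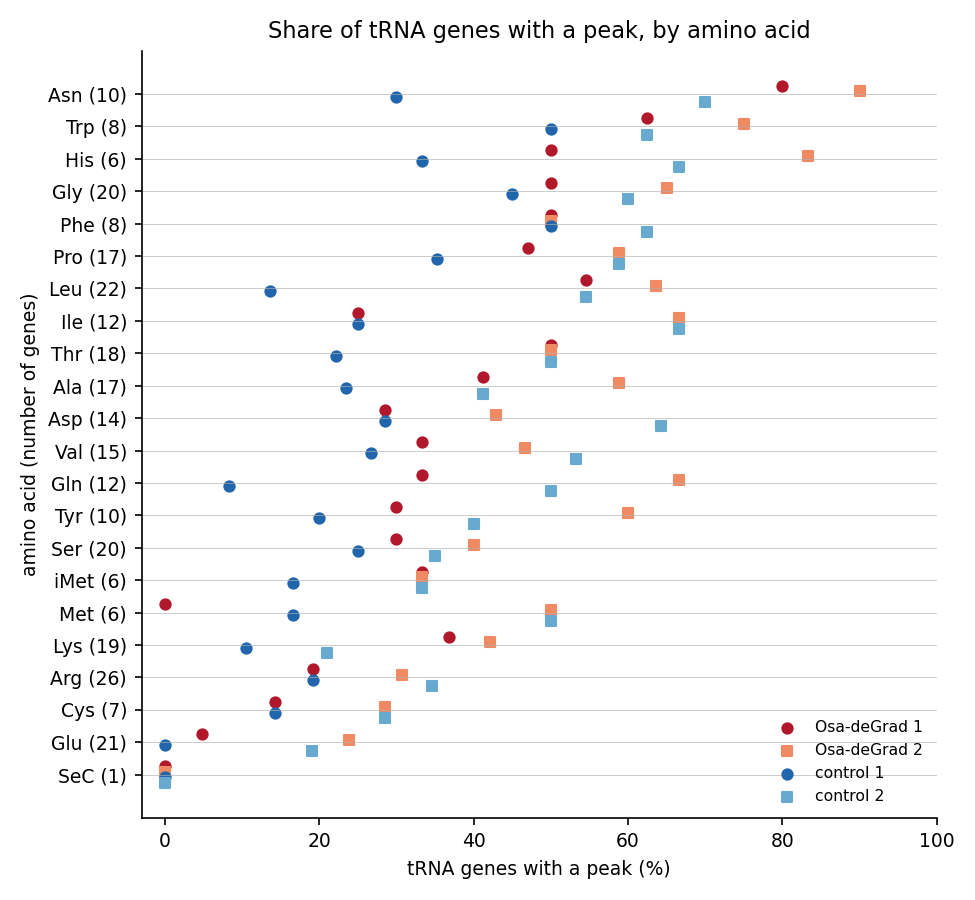
Share of tRNA genes with a peak (percent, horizontal axis) for each amino acid (vertical axis, number of genes in brackets, ordered by the mean of the 4 libraries), with 1 point per library. Asn is at the top with 8 and 9 of its 10 genes in Osa-deGrad, against 3 and 7 in control libraries, and Glu and the single SeC gene are at the bottom.

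Copies of the same mature tRNA differed from each other. The genes fall into 89 families by mature sequence number, of which 32 have at least 4 genes and hold 217 genes together. In 19 of these 32 families at least 1 copy had a peak in all 4 lists while another had none. Gly-GCC-1 is an example with 13 copies, of which Gly-GCC-1-2, Gly-GCC-1-9, Gly-GCC-1-12 and Gly-GCC-1-13 had a peak in all 4 lists and Gly-GCC-1-7, Gly-GCC-1-8, Gly-GCC-1-10 and Gly-GCC-1-11 had none. In 5 families, among them Gly-TCC-1, Leu-CAG-1 and Trp-CCA-2, every copy had a peak in at least 1 list. In 2 families no copy had a peak, the 5 genes of Lys-TTT-2 and the 4 of Arg-TCG-3. Copies with the same mature sequence thus ranged from open in every library to without a peak in any. Reads from copies that also share their flanks can be hard to place in the genome, and the part of read placement was not tested.

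The 16 genes of at least 90 bp all code for Tyr, Leu or Ile tRNAs and include the gene types whose transcripts are known to be spliced. Of these, 5 and 10 had a peak in Osa-deGrad, against 4 and 8 in control libraries, and of the 279 shorter genes 102 and 141 had one in Osa-deGrad, against 64 and 129 in control libraries. Leu-CAA-2-1, Ile-TAT-1-1 and Tyr-GTA-1-6 had peaks in all 4 lists.

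Grouped by position, tRNA genes with neighbours of their own kind had a peak more often than single genes. Joining tRNA genes no more than 5000 bp apart gave 77 single genes and 69 clusters with 218 genes. Single genes had a peak at 23.4% and 32.5% in Osa-deGrad, against 9.09% and 28.6% in control libraries. Genes in clusters of 2 or 3 had one at 48.3% and 65.0% in Osa-deGrad, against 36.7% and 63.3% in control libraries. Genes in clusters of 4 or more had one at 31.6% and 49.0% in Osa-deGrad, against 17.3% and 39.8% in control libraries. A single peak can serve several genes of a cluster, and the part of such sharing in the difference was not tested.

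The largest clusters differed widely. A cluster of 11 genes (4 Lys, 3 Arg, 3 Asn, 1 Ile) on 2R at 6161535 to 6171759 reaches into EcR, the ecdysone receptor gene. It had 8 and 9 genes with a peak in Osa-deGrad, against 3 and 5 in control libraries. Its gene Arg-ACG-1-3 had a peak in all 4 lists, at ranks of 55.9 and 66.3 in Osa-deGrad, against 9.10 and 58.1 in control libraries. Averaged over the lists where a gene had a peak, the highest rank in the cluster was shared by Lys-CTT-1-4 and Ile-AAT-1-1, whose common peak stood in Osa-deGrad 2 alone, at 48.8. Lys-CTT-1-5 and Arg-ACG-1-4 shared a peak in every list, which ranked at 8.73 and 34.6 in Osa-deGrad, against 52.0 and 44.0 in control libraries. The other cluster of 11 genes (4 Ala, 3 Pro, 2 Thr, 2 Val) lies on 3R at 17617761 to 17631750. It had 2 and 7 genes with a peak in Osa-deGrad, against 4 and 6 in control libraries, and no gene had a peak in all 4 lists.

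Of 8 genes (6 Glu and 2 initiator Met) on 2R at 19725620 to 19729353 none had a peak in any list. This cluster ends 209 bp from the 5S rRNA gene CR33452, and 0 of the 96 5S rRNA genes had a peak in any list. Over all genes, 46.3% had none. The 5S rRNA genes are repeated copies in a row, where reads can be hard to place. The part of read placement in these missing peaks was not tested. All of the 7 genes (5 Ile, 2 Leu) on 2R at 13430282 to 13432794, inside the phospholipid flippase gene ATP8A, had a peak in at least 1 list. The counts were 2 and 6 in Osa-deGrad, against 3 and 7 in control libraries. On X, 7 genes (5 Arg, 2 Ser) at 14014814 to 14017284 had 0 and 1 with a peak in Osa-deGrad, against 0 and 2 in control libraries.

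Clusters of 6 genes came next, 4 in number. The 6 Glu genes on 3L at 1397695 to 1401852 had 0 and 2 with a peak in Osa-deGrad, against 0 and 1 in control libraries, all at Glu-CTC-3-8 and Glu-CTC-3-9 on the right-hand side. The 6 Leu genes on 3L at 8060214 to 8068290 had 5 and 5 in Osa-deGrad, against 0 and 3 in control libraries. A mixed Cys and Lys cluster on 3L at 3095737 to 3097590 had 2 and 3 in Osa-deGrad, against 1 and 3 in control libraries. An Arg and Asn cluster on 3R at 8139533 to 8141042 had 1 gene with a peak, Asn-GTT-1-10, in each Osa-deGrad list, against 0 and 1 in control libraries.

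**Figure D5:**
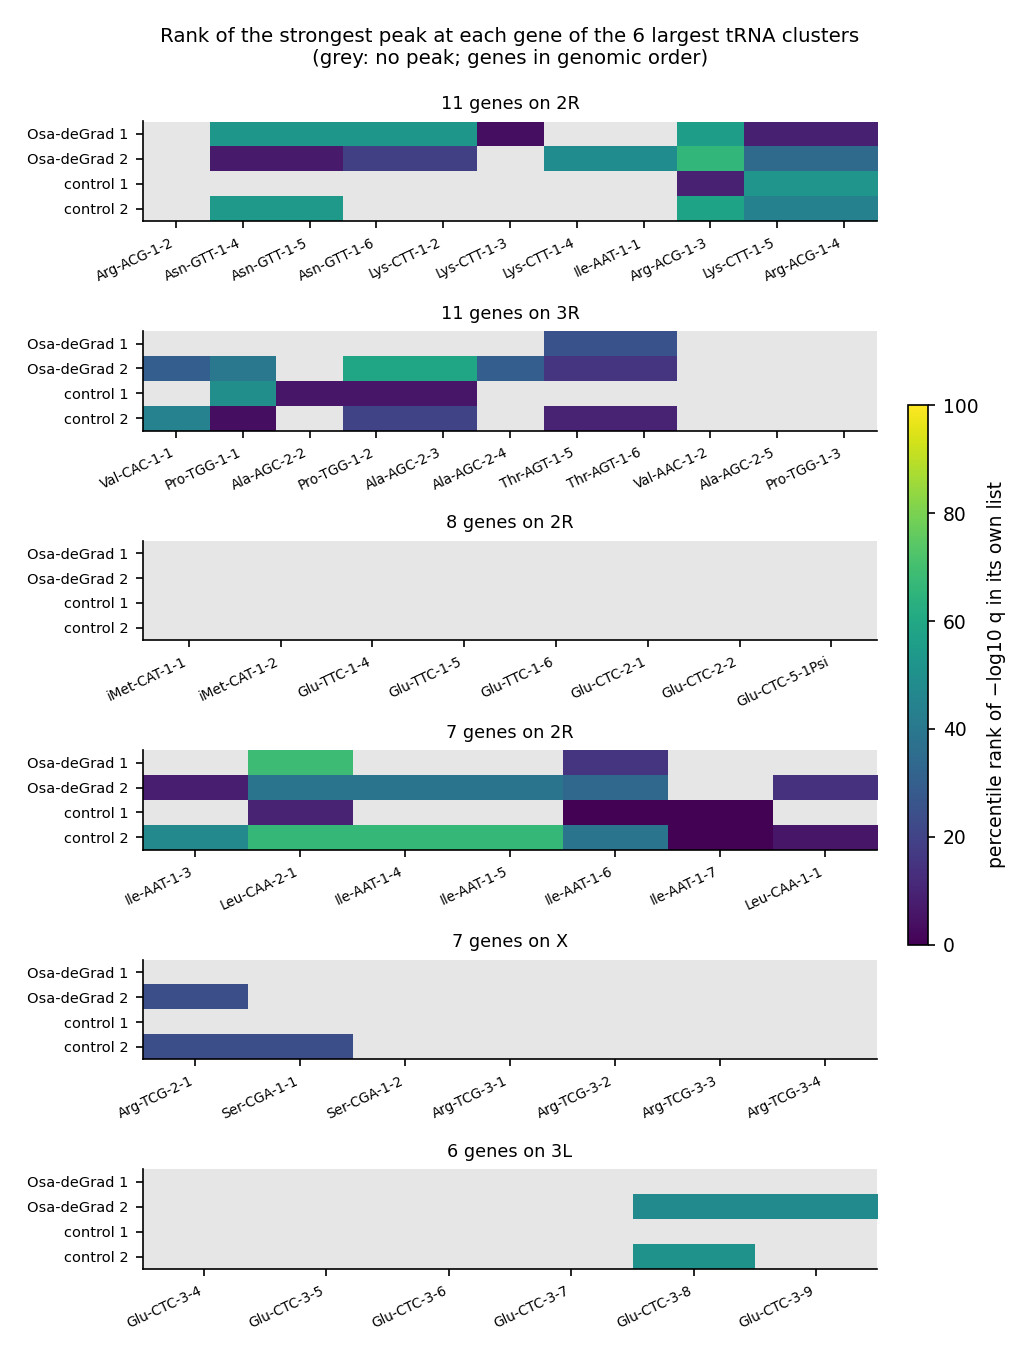
Percentile rank (colour, within each library's own list) of the strongest peak at each gene of 6 of the largest tRNA clusters, with genes in genomic order along the horizontal axis and the 4 libraries as rows. Grey marks genes without a peak. The cluster of 8 genes on 2R is grey throughout, and adjacent genes of equal colour share 1 peak.

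Ranked by their lowest value over the 4 lists, the strongest tRNA sites were these. Pro-TGG-1-5 (3R, 18628467 to 18628538), inside the piRNA pathway gene qin, had ranks of 83.6 and 98.5 in Osa-deGrad, against 98.04 and 97.3 in control libraries. The authors' fold enrichment there was 8.30 and 11.1 in Osa-deGrad, against 14.6 and 12.6 in control libraries, with the summit 87 to 135 bp from the gene. Trp-CCA-2-5 (2R, 21181284 to 21181355), inside Pu, which encodes GTP cyclohydrolase, ranked at 83.8 and 77.2 in Osa-deGrad, against 84.5 and 84.3 in control libraries. Leu-AAG-1-3 (2R, 17145300 to 17145381) ranked at 67.5 and 63.2 in Osa-deGrad, against 78.8 and 84.8 in control libraries, with its summit inside the gene in 3 of the 4 libraries.

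The other genes of the 10 with the highest lowest rank were Pro-AGG-1-4, Leu-TAG-1-2, Ala-AGC-2-8, Gly-GCC-1-12, Trp-CCA-2-4, Ala-TGC-2-1 and, tied on 1 peak, Asn-GTT-1-7 and Asn-GTT-1-8. Their lowest ranks ran from 52.4 at the Asn pair to 62.4 at Pro-AGG-1-4. Gly-GCC-1-12 and Trp-CCA-2-4 also shared a peak, at ranks of 58.4 and 85.1 in Osa-deGrad, against 68.2 and 72.3 in control libraries. All of these sites ranked above the middle of every list.

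A peak in both lists of a genotype and neither of the other was found at few genes. At 12 tRNA genes (4.07%, against 1.23% of all genes) a peak stood in the pair of Osa-deGrad lists alone. At 6 (2.03%, against 0.582% of all genes) it stood in the control lists alone. Most of these peaks were weak. Counting each cluster once left 3 in Osa-deGrad lists alone and 2 in control lists alone, and taking summits within 500 bp left 6 and 3 genes. With a −log10 q minimum of 5 the counts were 6 and 1. These counts also depend on single libraries: leaving out Osa-deGrad 1, Osa-deGrad 2 or control 2 gave 26, 20 and 50 genes in Osa-deGrad lists alone, and leaving out Osa-deGrad 2 or control 1 gave 18 and 13 in control lists alone. With fewer lists to meet, such counts can only rise by construction. The highest lower rank among the 12 was 34.7, at Lys-TTT-1-1 (2L, 8290727 to 8290799), inside the tyrosine kinase gene Btk, with 34.7 and 48.3 in the Osa-deGrad lists. The nearest control summit to this gene was 1108 bp away.

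The next of the 12 were Thr-CGT-1-2 (3R, 20891122 to 20891193), at ranks of 33.5 and 72.6, Trp-CCA-2-3 (2R, 21161063 to 21161134), at 30.4 and 48.8, and Ser-GCT-1-1 (3R, 22397180 to 22397261), at 35.3 and 28.7. Ala-AGC-2-1, inside the kinase gene nmo, followed at 25.04 and 22.2. Leu-CAG-1-2 was at 19.6 and 59.04, the neighbours Asn-GTT-1-6 and Lys-CTT-1-2 inside EcR shared a peak at 52.9 and 19.1, and Tyr-GTA-1-4 was at 19.9 and 17.9. Gln-TTG-2-1 was at 51.3 and 9.85, Ser-AGA-2-3 at 6.40 and 23.3, and Leu-CAG-1-6 at 1.33 and 16.6. At 7 of the 12, a control list had a summit within 500 bp, the nearest 269 bp away, so a peak was near, outside the window, in a control list.

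The 6 genes with a peak in control lists alone were Val-CAC-2-3 (3R, 7472060 to 7472132), at ranks of 24.8 and 38.04, Phe-GAA-1-2 (X, 6744471 to 6744543), at 52.01 and 72.8, Arg-ACG-1-5 (2R, 6178584 to 6178656), at 10.2 and 21.4, Gly-GCC-1-4, at 7.02 and 53.6, Ser-GCT-2-4, at 19.7 and 3.20, and Ile-AAT-1-7, at 0.505 and 0.669. Phe-GAA-1-2 rests on the window alone: its nearest summits were 201 and 210 bp away in Osa-deGrad, against 159 and 173 bp away in control libraries, at a region beside the ribosomal protein gene RpL17 that all 4 lists held. At Val-CAC-2-3 the summit lay inside the gene in both control lists, and the nearest Osa-deGrad summits were 1686 and 1688 bp away. At 4 of the 6, an Osa-deGrad list had a summit within 500 bp. These were Phe-GAA-1-2 (201 bp), Gly-GCC-1-4 (233 bp), Ile-AAT-1-7 (259 bp) and Ser-GCT-2-4 (399 bp). Ser-GCT-2-4 and Ser-GCT-1-1 are neighbours on 3R, with the first in control lists alone and the second in Osa-deGrad lists alone.

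Strength was compared between libraries only over the 7890 merged regions that all 4 lists held, re-ranked among themselves. At 45 of these, a peak of at least 1 list met the counting rule for a tRNA gene. A region's rank in a list came from its strongest peak there, which need not be a peak at the gene. At Gln-CTG-2-3, for example, control 1 had no peak by the rule. Their median rank was 29.9 and 40.8 in Osa-deGrad, against 25.9 and 32.6 in control libraries. The mean Osa-deGrad rank less the mean control rank had a median of 6.33 points over the 45 regions, against 0.593 over all shared regions. It was higher in Osa-deGrad at 26 regions and lower at 19. Both Osa-deGrad ranks lay above both control ranks at 10 of the 45 (22.2%, against 18.0% of all shared regions) and below both at 6 (13.3%, against 17.5%). These shares are near the background. Without Osa-deGrad replicate 2 the median was -2.48 points, and without control replicate 2 it was 9.91 points. At the 24 shared regions of tRNA genes more than 500 bp from other gene ends it was 1.12 points.

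Regions higher in both Osa-deGrad lists were led by His-GTG-1-3 (region 2R, 12334944 to 12335389), with ranks of 63.4 and 65.3 in Osa-deGrad, against 25.9 and 45.4 in control libraries. The region of Gly-GCC-1-13 and Trp-CCA-2-6 beside Pu had 49.4 and 69.4 in Osa-deGrad, against 18.1 and 44.6 in control libraries. Asn-GTT-1-3 had 66.9 and 51.4 in Osa-deGrad, against 25.9 and 39.2 in control libraries. The region beside Phe-GAA-1-2 and that of Cys-GCA-1-3 and Lys-CTT-1-12 followed, with mean ranks of 66.3 and 29.3 in Osa-deGrad, against 40.0 and 11.6 in control libraries.

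Regions lower in both Osa-deGrad lists were led by the pair Asn-GTT-1-7 and Asn-GTT-1-8 (region 2R, 6190075 to 6190530), with ranks of 47.3 and 25.1 in Osa-deGrad, against 55.4 and 80.8 in control libraries. Leu-AAG-1-3 had 49.8 and 37.0 in Osa-deGrad, against 66.2 and 67.5 in control libraries. Thr-AGT-1-4 had 2.07 and 12.03 in Osa-deGrad, against 39.6 and 13.3 in control libraries. The region of Arg-ACG-1-4 and Lys-CTT-1-5 had a mean of 7.14 in Osa-deGrad, against 24.2 in control libraries, and Thr-AGT-1-7 a mean of 15.2 in Osa-deGrad, against 27.4 in control libraries. Copies of 1 family differed in opposite directions, as with Asn-GTT-1-3 and Asn-GTT-1-7.

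Genes of the tRNA pathway were read by the same rule. Of 15 genes of the polymerase III machinery, 12 and 13 had a peak in Osa-deGrad, against 6 and 11 in control libraries. Over all genes the shares in the same libraries were 39.9% and 48.5% in Osa-deGrad, against 36.0% and 46.7% in control, and the count of 6 came from control 1, the library that was also low at tRNA genes. Polr3A, Polr3E, Polr3F, Polr3G, Brf and Bdp1 had a peak in all 4 lists, while the repressor gene Maf1 and CG7099, a TFIIIC subunit gene, had none. Trf had ranks of 36.3 and 89.2 in Osa-deGrad, against 67.7 in control 2, with no peak in control 1. Polr3C (ranks 86.9 and 3.10) had peaks in the Osa-deGrad lists alone, a pattern found at 1.23% of all genes. Of the 20 cytoplasmic aminoacyl-tRNA synthetase genes, which charge tRNAs with their amino acids, 13 and 20 had a peak in Osa-deGrad, against 13 and 20 in control libraries. None of them was specific to a genotype.

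Among 10 other RNA genes that polymerase III transcribes, 2 and 3 had a peak in Osa-deGrad, against 1 and 3 in control libraries. Over all genes the shares were 39.9% and 48.5% in Osa-deGrad, against 36.0% and 46.7% in control libraries. Over the 565 other small RNA genes they were 6.90% and 9.20%, against 5.31% and 7.96%. RNaseMRP:RNA had a peak in all 4 lists, at ranks of 36.3 and 59.6 in Osa-deGrad, against 42.1 and 52.2 in control libraries. The U6 gene snRNA:U6:96Ac had ranks of 32.1 and 4.56 in Osa-deGrad, against 55.1 in control 2. The 7SK gene snRNA:7SKa had a peak in each replicate 2 list, at 42.01 in Osa-deGrad, against 64.4 in control. Both 7SL RNA genes, RNaseP:RNA, snRNA:U6atac, snRNA:7SKb and the other U6 genes had no peak in any list. Of these, the 7SL and U6 genes occur in several copies, and the part of read placement in their missing peaks was not tested.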

How the data were processed

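Of the 4 FAIRE-seq libraries, each has a list of peaks on dm6, called per library as the peak names in the deposited files show, which also carry the words trim, q5 and dupsRemoved. The submitters' processing notes name MACS2 2.1.2, a peak caller, Bowtie2 2.3.4.1, an aligner, and SAMtools 1.9, Picard 2.2.4 and deepTools 2.4.1. How the caller was set is not given in the sources used here, and the series' design text describes another assay than the labels. The deposited lists give for each peak a score, a fold enrichment (a ratio), a −log10 p and a −log10 q. The score equalled the integer part of 10 times −log10 q for 100% of peaks. These values were made by the authors and depend on depth, so they were used to rank peaks within a list. Percentile ranks, gene overlaps, clusters (5000 bp) and merged regions (overlap of at least 1 bp) were computed with Python 3.11.15, pandas 2.3.3 and NumPy 2.4.6. The joins were tested on simulated data with planted peaks. Genes come from RefSeq by symbol, 295 of 295 with coordinates and without strand. Named genes followed a rule: those specific to a genotype, the 10 with the highest lowest rank, the 6 largest clusters (ties are also given) and up to 5 shared regions per direction with separated ranks. The members, lists and rules were chosen with earlier results of these data known. The labels do not say that replicates came from separate crosses, so their spread may be technical. The planned search for promoter motifs was not run, since no sequence was used here. Values of 1 gene of the polymerase III list are not reported here.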

Additional observations from a re-analysis of the deposited data

How the results depend on the processing

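Every alternative here was planned. Of 82 alternative values, 51 stayed within the allowed range, 24 moved and 7 reversed. Counts were judged by a fixed ratio and differences by a spread between libraries. That spread was 16.5 points for the share of tRNA genes with a peak, so staying within it is a weak bar. The cause of changes was not tested, except that by construction stricter minima lower the count in all lists and fewer genes lower every count. With libraries left out 1 at a time, the difference in the share of tRNA genes with a peak ran from -2.71 to 20.7 points, the count in all lists from 48 to 86, the count in Osa-deGrad lists alone from 13 to 50, in control lists alone from 6 to 18, the difference in median rank from -3.80 to 6.39 points and that over shared regions from -2.48 to 9.91 points. With a −log10 q minimum of 5, 24 genes were in all lists, 6 in Osa-deGrad lists alone and 1 in control lists alone, and with a minimum of 10 these were 3, 2 and 0. That minimum also gave -13.5 points for the difference in median rank, -13.95 points over the 4 shared regions left, and 10.99 points for the excess over other small RNA genes. With summits counted within 500 bp, 81, 6 and 3 genes were in all lists, in Osa-deGrad lists alone and in control lists alone, and the median rank differed by -0.628 points. With overlap only, 2 genes were in control lists alone, and with lists of equal length 3. Counting each cluster once gave 3 in Osa-deGrad lists alone and 2 in control lists alone. Over tRNA genes more than 500 bp from other genes, 22 were in all lists and the shared regions differed by 1.12 points. With the replicate number as a block the differences were 8.98 points for the share and 1.297 for the median rank, equal to the unpaired ones by construction, and 3.99 for the shared regions; the numbers are not known to pair libraries. Counts of reads are unknown, so what depth limits cannot be stated beyond the length of the lists.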

Other observations

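Around the 7SL RNA genes on 3R, 4 copies of Lys-TTT-2 lie between 6819894 and 6823035, with 7SLRNA:CR42652 and 7SLRNA:CR32864 among them. Neither these 4 copies nor either 7SL gene had a peak in any list, in Osa-deGrad or in control libraries. Lys-TTT-2-5, elsewhere on 3R, had none either. Reads from repeated copies can be hard to place, and the part of read placement in these missing peaks was not tested. Peak width did not set tRNA sites apart from their lists. The median width at tRNA genes was 203 and 254 bp in Osa-deGrad libraries, whose lists had medians of 219 and 241 bp, and 193 and 248 bp in control libraries, whose lists had medians of 217 and 244 bp.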
